A study of Homo sapiens with 6 samples.

Results

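The mitochondrial genome encodes 7 subunits of respiratory complex I, MT-ND1, MT-ND2, MT-ND3, MT-ND4, MT-ND4L, MT-ND5 and MT-ND6. They were taken as all rows of the gene table whose symbol starts with MT-ND, which gave 7 of 19610 genes and 7 of the 13 mitochondrially encoded genes listed. Transcripts were measured by RNA sequencing in SH-SY5Y, an established human neuroblastoma line labelled wild type, given either SGC707, an inhibitor of the arginine methyltransferase PRMT3, or the solvent DMSO. Each treatment had 3 libraries, lettered A, B and C. The labels state neither dose nor duration, nor whether the libraries of a treatment were separate cultures, so the p-values reflect only how these libraries scatter, which may be technical.

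Complex I (NADH:ubiquinone oxidoreductase) is the entry point of the respiratory chain, where electrons from NADH are passed to ubiquinone and protons are pumped across the inner mitochondrial membrane. Its mitochondrially encoded subunits all sit in the membrane arm, whereas the flavin and the iron-sulfur clusters are held by nuclear-encoded subunits of the arm that projects into the matrix. Mitochondrial DNA is transcribed from both strands into long precursors that are cut into individual mRNAs, mostly at the tRNAs between them. MT-ND6 is the only protein gene on its strand, and its mRNA carries little or no poly(A) tail.

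The coding sequences show how MT-ND6 differs from the rest. All 7 symbols matched GENCODE release 29 on GRCh38, where 6 members lie on the plus strand of the mitochondrial chromosome and 1, MT-ND6, on the minus strand. The first 60 bases of each are given 5′ to 3′ as transcribed, with every G in capitals, because base composition separates the strands:
MT-ND1: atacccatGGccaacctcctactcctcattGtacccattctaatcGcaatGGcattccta
MT-ND2: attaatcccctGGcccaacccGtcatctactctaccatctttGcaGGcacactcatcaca
MT-ND3: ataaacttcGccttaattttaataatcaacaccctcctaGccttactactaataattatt
MT-ND4L: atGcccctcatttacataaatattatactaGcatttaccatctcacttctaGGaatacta
MT-ND4: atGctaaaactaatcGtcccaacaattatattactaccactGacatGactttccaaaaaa
MT-ND5: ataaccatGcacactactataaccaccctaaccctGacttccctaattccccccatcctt
MT-ND6: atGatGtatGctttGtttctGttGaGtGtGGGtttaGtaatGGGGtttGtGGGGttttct

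Over the whole coding sequence, G made up 35.6% and C 7.05% of MT-ND6. In the other 6 members G made up 9.50% to 12.1% and C 29.5% to 36.0%. Total GC content did not set MT-ND6 apart, at 42.7% within a range of 40.2% to 47.7% over the 7 genes.

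A pair of junctions bears on how reads can be assigned. MT-ND4L (chrM:10470-10766) and MT-ND4 (chrM:10760-12137) are read in different frames from the same strand and share 7 bases, in capitals in the end of the first and the start of the second:
MT-ND4L end: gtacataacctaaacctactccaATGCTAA
MT-ND4 start: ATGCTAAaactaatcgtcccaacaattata

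MT-ND5 (chrM:12337-14148) and MT-ND6 (chrM:14149-14673) meet tail to tail on opposite strands with 0 bases between them. Their last 30 bases are shown with the last codon in capitals, the standard stop TAA in MT-ND5 and AGG in MT-ND6:
MT-ND5 end: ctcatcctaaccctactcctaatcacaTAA
MT-ND6 end: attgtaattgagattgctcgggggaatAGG

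The remaining members are MT-ND1 (chrM:3307-4262), MT-ND2 (chrM:4470-5511) and MT-ND3 (chrM:10059-10404). With MT-ND4 these make 4 genes whose last codon is incomplete in the DNA, a known feature of mitochondrial genes whose stop codon is completed by polyadenylation. The labels do not say whether the counting used strand, so reads from MT-ND6 and from RNA antisense to it cannot be told apart, and reads over the 7 bases shared by MT-ND4L and MT-ND4 could fall to either gene.

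The libraries held 11658728 to 15437602 counts in all, of which 6066305 to 6327895 with DMSO and 7559322 to 8999358 with SGC707 fell on nuclear genes (rows not starting with MT-). One library, SGC707 C, was unlike the other 5: the deviations of nuclear genes from their means followed GC content with a Spearman coefficient of -0.78 across genes in that library, and of -0.14 to 0.52 in the others. Each member is therefore also given without it. The adrenergic neuroblastoma markers PHOX2A, HAND2, GATA3, ISL1, DBH, CHGA and STMN2 were detected in every library, but TH, the first enzyme of catecholamine synthesis, had 0 counts in all 6, which allows up to 0.194 to 0.257 counts per 1000000 counts (CPM) by counting error alone. The summed level of the 9 adrenergic markers in the list was 8168 to 9495 counts per 1000000 nuclear counts (nuclear CPM) with DMSO and 6755 to 7323 with SGC707, and that of 5 mesenchymal markers 87.0 to 103.7 and 59.4 to 76.9, with PRRX1 at 0 or 1 count throughout. For these 2 sums the groups did not overlap, and their part in the results was not tested. Gene by gene, the groups did not overlap for 2 of the 9 adrenergic and 3 of the 5 mesenchymal markers, and the rest overlapped. On this scale 13.3% of all tested genes lay above and 8.36% below without overlap. The groups overlapped for 5 Schwann-like markers (2.61 to 5.28 and 2.12 to 3.56; SOX10 at 0), 5 epithelial markers (2.31 to 5.72 and 2.78 to 5.97) and 4 immune markers (1.80 to 2.14 and 0.667 to 2.78; PTPRC and CD3E at 0).

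Summed over the 7 genes, MT-ND transcripts took 28.1%, 33.5% and 25.3% of all counts across DMSO libraries A to C, and 11.4%, 12.1% and 19.3% across SGC707 libraries A to C. All 3 SGC707 libraries lay below all 3 DMSO libraries, and SGC707 C lay closest to them. The means were 28.96% ± 4.14 and 14.3% ± 4.41 (SD, n = 3), a difference of -14.7 percentage points, at a two-sided exact permutation p of 0.1, below which 3 against 3 libraries cannot go. The 95% Wilson interval of each library's share is at most 0.0495 percentage points wide and covers counting error only, so the spread between libraries far exceeds it.

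The same genes were also scaled to nuclear counts. DMSO libraries A to C had 602222, 851585 and 474659 nuclear CPM on MT-ND genes, and SGC707 libraries A to C had 150766, 161395 and 310377. The mean log2 difference was -1.67, or 3.18-fold lower with SGC707 (two-sided exact permutation p = 0.1, n = 3), and -2.00 without SGC707 C. The MT-ND counts themselves were 3003591 to 5165973 with DMSO and 1356796 to 2346236 with SGC707. Counts are relative within a library, so less mitochondrial RNA per cell and more nuclear RNA per cell cannot be told apart, nor can less RNA per cell and fewer cells of a kind rich in it.

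**Figure D1:**
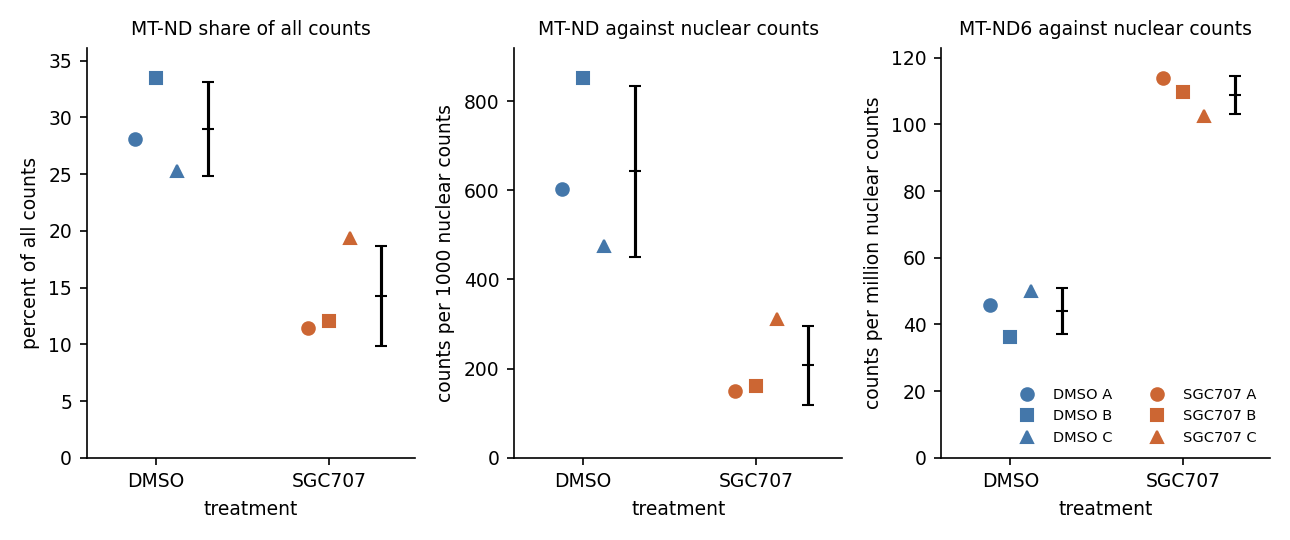
Left, the MT-ND share of all counts (percent); middle, MT-ND counts per 1000 nuclear counts; right, MT-ND6 alone in nuclear CPM. Symbols are the 6 libraries (A, B, C by shape), bars the mean ± SD of 3. The summed genes are lower in all SGC707 libraries, from 25.3% or more down to 19.3% or less of all counts, whereas MT-ND6 is higher in all of them.

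No member passed the test across all genes in edgeR, a quasi-likelihood test on counts with an adjusted p under 0.05, in which 0.0082% of 12196 tested genes were called higher and 0.0164% lower. At an unadjusted p under 0.05, 1 member was higher (background 5.62%) and 6 were lower (7.13%). All 7 members passed the filter on low counts. Of the other tools, limma-voom also called 0 members, while DESeq2 called 1 higher and 6 lower, against 0.444% and 2.12% of all genes. Leaving out SGC707 C, edgeR called 1 higher and 6 lower as well, with adjusted p of 0.0272 to 0.0277, against 3.73% and 5.53% of all genes.

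On the scale of nuclear counts, 6 of 7 members had all SGC707 libraries below all DMSO libraries, as did 8.36% of all tested genes, and MT-ND6 had all of them above, as did 13.3%. As CPM of all counts, 5 of 7 lay below (0.771% of all genes) and 1 above (49.4%), and MT-ND3 overlapped through SGC707 C alone. The sign of each member's log2 fold change was the same in all 16 alternative fits, those with other scaling included.

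MT-ND2, MT-ND4 and MT-ND5 encode the large antiporter-like subunits through which protons are pumped. MT-ND4, with the most counts of the 7, stood at 219226, 314560 and 181355 nuclear CPM across DMSO libraries A to C and at 55490, 61255 and 121612 across SGC707 libraries A to C. Its groups did not overlap, and SGC707 C was the highest of its group. The log2 fold change was -1.63 (SE 0.44, 95% interval -2.63 to -0.62, edgeR adjusted p = 0.249), and -2.13 without SGC707 C.

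MT-ND5, which lies at the far end of the membrane arm, had 82533, 113205 and 61381 nuclear CPM with DMSO and 19193, 20202 and 41871 with SGC707, in the order A, B, C. The pattern over the libraries was that of MT-ND4. Its log2 fold change was -1.70 (SE 0.42, 95% interval -2.68 to -0.72, edgeR adjusted p = 0.231), and -2.22 without SGC707 C.

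MT-ND2 had 109613, 151047 and 81963 nuclear CPM across DMSO libraries A to C and 28812, 29234 and 57041 across SGC707 libraries A to C. Between the groups, DMSO C and SGC707 C were again nearest to each other. Its log2 fold change was -1.62 (SE 0.41, 95% interval -2.56 to -0.67, edgeR adjusted p = 0.235), and -2.08 without SGC707 C.

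MT-ND1 forms much of the site where ubiquinone enters the complex. It had 101112, 138524 and 78193 nuclear CPM across DMSO libraries A to C and 28334, 29418 and 46467 across SGC707 libraries A to C, with no overlap between the groups. Its log2 fold change was -1.66 (SE 0.36, 95% interval -2.48 to -0.83, edgeR adjusted p = 0.190), and -1.98 without SGC707 C.

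The small hydrophobic subunits MT-ND3 and MT-ND4L marked the ends of the range among the 6 members on the plus strand. MT-ND3 had 4133, 5937 and 3703 nuclear CPM across DMSO libraries A to C and 1800, 1618 and 3102 across SGC707 libraries A to C, which gave a log2 fold change of -1.12 (SE 0.32, 95% interval -1.86 to -0.39, edgeR adjusted p = 0.263). MT-ND4L had 85559, 128275 and 68013 with DMSO and 17023, 19559 and 40182 with SGC707, which gave a log2 fold change of -1.92 (SE 0.44, 95% interval -2.94 to -0.89, edgeR adjusted p = 0.202). In neither gene did the groups overlap on this scale. Without SGC707 C the values were -1.53 for MT-ND3 and -2.46 for MT-ND4L.

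MT-ND6, a small subunit of the membrane arm, went the other way. It had 281, 220 and 316 counts across DMSO libraries A to C and 1025, 956 and 776 across SGC707 libraries A to C. The exact 95% Poisson intervals, which cover counting error only, reach 352.8 counts at most with DMSO and start at 722.4 or more with SGC707. In nuclear CPM the values were 45.9, 36.3 and 49.9 with DMSO and 113.9, 109.8 and 102.7 with SGC707, a tight group in which SGC707 C did not stand apart. The log2 fold change was 1.25 (SE 0.16, 95% interval 0.87 to 1.62, edgeR adjusted p = 0.115), and 1.25 without SGC707 C. By p-value it ranked 6 among all 12196 tested genes, without passing the threshold.

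**Figure D2:**
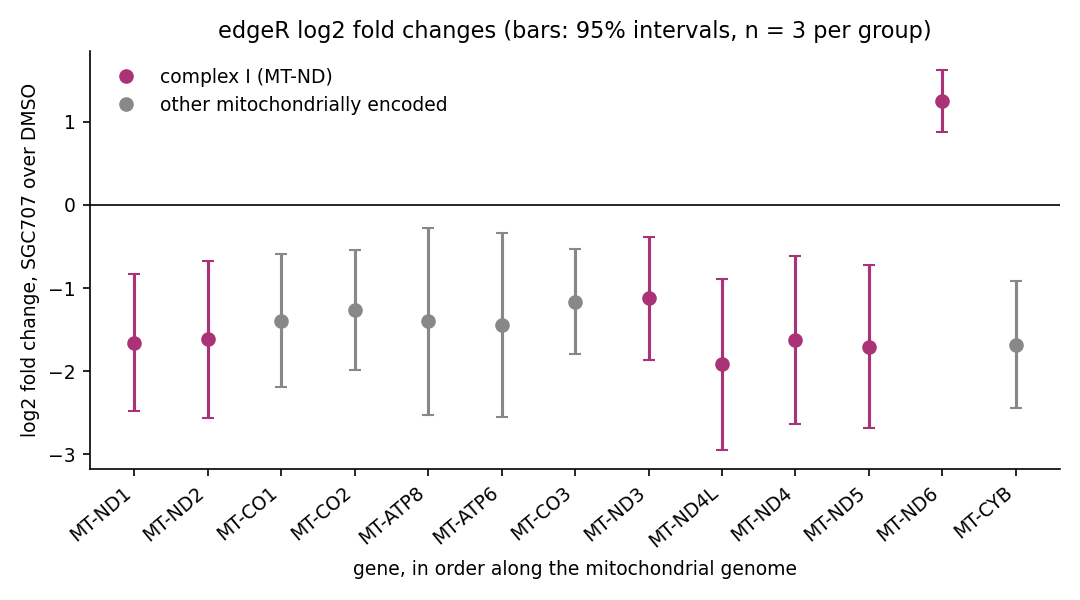
edgeR log2 fold changes of SGC707 over DMSO (vertical axis) for the 13 mitochondrially encoded genes in genome order (horizontal axis), with 95% intervals, n = 3 per group. Complex I genes are purple and the others grey. MT-ND6 lies at 1.25 and the other 12 lie below 0, although no gene shown passed after adjustment.

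The balance between MT-ND6 and the other members needs no scaling between libraries. For each MT-ND6 count there were 13119, 23481 and 9504 counts on the other 6 members across DMSO libraries A to C, and 1323, 1469 and 3023 across SGC707 libraries A to C. The groups did not overlap, and SGC707 C was nearest to DMSO. The log2 ratio of MT-ND6 to the other 6 was -13.80 ± 0.66 with DMSO and -10.82 ± 0.65 with SGC707 (SD, n = 3), 7.93-fold higher with SGC707 (two-sided exact permutation p = 0.1, again the lowest possible). Against MT-ND5 alone, its tail-to-tail neighbour, the log2 difference was 3.03, and against all 12 other mitochondrial genes 2.84. Leaving out any library kept the log2 difference between 2.63, when DMSO B was dropped, and 3.36, when SGC707 C was dropped.

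The libraries fell into opposite orders for MT-ND6 and for the other 6 members. Within DMSO, B had the most of the other members and the least MT-ND6 in nuclear CPM, and C had the reverse. Within SGC707, A had the least of the other members and the most MT-ND6, and C had the reverse. With 3 libraries a group this is a description, and both measures share the nuclear counts as denominator.

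**Figure D3:**
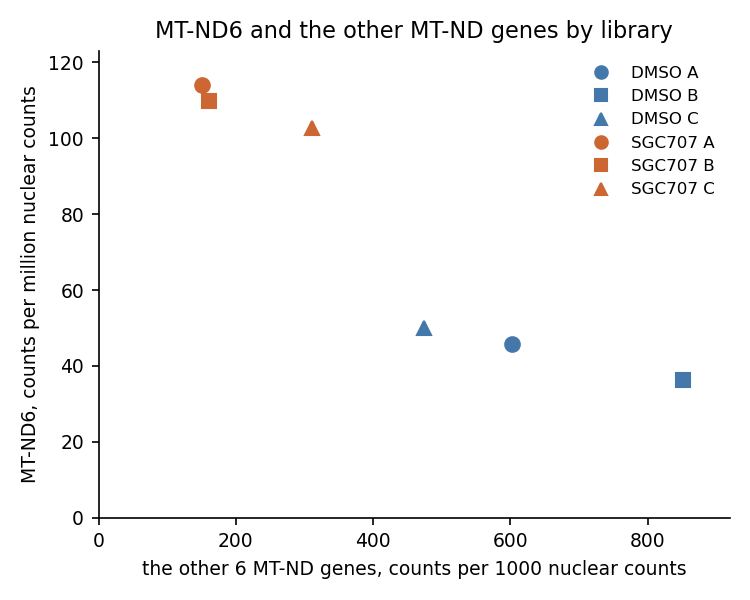
MT-ND6 in nuclear CPM (vertical axis) against the other 6 MT-ND genes in counts per 1000 nuclear counts (horizontal axis), one point per library, DMSO blue and SGC707 orange. The SGC707 libraries have 102.7 or more on the vertical axis and the DMSO libraries 49.9 or less, and within each group the order on one axis is the reverse of that on the other.

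Counts of different genes were compared per kilobase of coding sequence. In nuclear CPM per kilobase, MT-ND4L was highest, at 316327 ± 104360 with DMSO and 86154 ± 42769 with SGC707 (SD, n = 3), followed by MT-ND4 at 172990 ± 49809 and 57658 ± 26578. Both are carried on the same mature mRNA, yet MT-ND4L had 1.81 times the counts of MT-ND4 per kilobase with DMSO and 1.48 times with SGC707. Counts per kilobase therefore need not follow transcript level, and the part of read assignment was not tested. MT-ND1 (110819 ± 31856 with DMSO) and MT-ND2 (109604 ± 33369) changed places between libraries, so their order was not resolved. MT-ND5 came next, at 47299 ± 14380 with DMSO and 14950 ± 7071 with SGC707.

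MT-ND3 and MT-ND6 were far lower on this scale. MT-ND3 stood at 13269 ± 3426 with DMSO and 6281 ± 2339 with SGC707, and MT-ND6 at 83.9 ± 13.4 and 207.2 ± 10.8. Apart from MT-ND1 and MT-ND2, every neighbouring pair kept its order inside each of the 6 libraries, although the group spreads of neighbours such as MT-ND4 and MT-ND1 come close. MT-ND4L and MT-ND3 are similar in length, 297 and 346 bases, yet MT-ND4L was 23.6 ± 1.95 times MT-ND3 per kilobase with DMSO and 13.4 ± 2.12 times with SGC707. That ratio too is one of counts, and the part of read assignment in it was not tested.

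**Figure D4:**
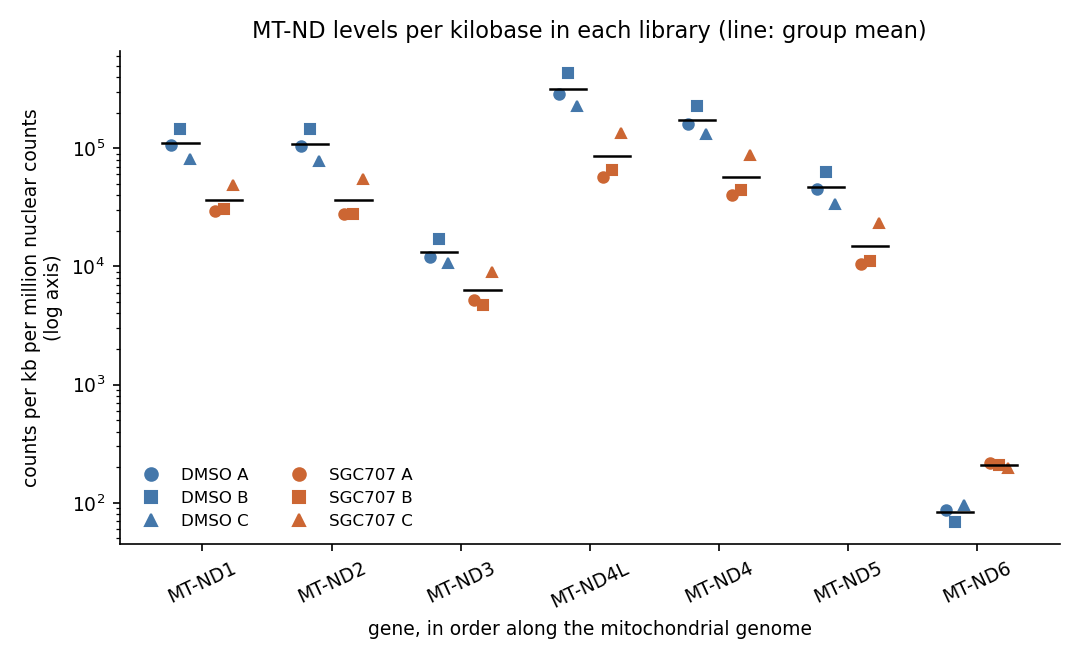
Nuclear CPM per kilobase (vertical log axis) for the 7 MT-ND genes in genome order, each library as a point (DMSO blue, SGC707 orange, letters by shape) and each group mean as a line. MT-ND4L is highest and MT-ND6 lowest in all 6 libraries, and only MT-ND6 has its SGC707 points above its DMSO points.

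The proportions within the set were compared next. As a share of all MT-ND counts, MT-ND4 had 37.2% ± 0.927 with DMSO and 38.0% ± 1.19 with SGC707, MT-ND2 17.7% ± 0.467 and 18.5% ± 0.517, MT-ND1 16.5% ± 0.263 and 17.3% ± 2.06, and MT-ND5 13.3% ± 0.387 and 12.9% ± 0.512 (SD, n = 3). For these 4 genes the groups overlapped, and for the other 3 members they did not. For MT-ND1 and MT-ND5 the overlap came from SGC707 C alone. MT-ND1 had 16.8%, 16.3% and 16.5% across DMSO libraries A to C and 18.8%, 18.2% and 15.0% across SGC707 libraries A to C, and MT-ND5 had 13.7%, 13.3% and 12.9% with DMSO and 12.7%, 12.5% and 13.5% with SGC707. Without that library MT-ND1 was higher and MT-ND5 lower in both remaining SGC707 libraries than in any DMSO library. The count ratio of MT-ND2 to MT-ND5 did not overlap even with it, at 1.33, 1.33 and 1.34 across DMSO libraries A to C and 1.501, 1.45 and 1.36 across SGC707 libraries A to C. Every other ratio between these 4 genes did overlap. That of MT-ND1 to MT-ND5 was 1.22 to 1.27 with DMSO and 1.11 to 1.48 with SGC707. That of MT-ND4 to MT-ND5 was 2.66 to 2.95 and 2.89 to 3.03.

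MT-ND4L took 14.2%, 15.1% and 14.3% of MT-ND counts across DMSO libraries A to C and 11.3%, 12.1% and 12.9% across SGC707 libraries A to C. MT-ND3 took 0.686%, 0.697% and 0.780% with DMSO and 1.19%, 1.003% and 0.999% with SGC707. MT-ND6 took 0.00426% to 0.0105% with DMSO and 0.0331% to 0.0755% with SGC707. The SGC707 libraries were thus all lower for MT-ND4L and all higher for MT-ND3 and MT-ND6. Each of these 3 differences had a two-sided exact permutation p of 0.1, and of 0.233 after Benjamini-Hochberg adjustment over the 7 members, a design that cannot reach 0.05.

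MT-ND4L and MT-ND4 are carried on the same mature mRNA, so their ratio compares parts of a shared transcript. The count ratio of MT-ND4L to MT-ND4 was 0.391 ± 0.0164 with DMSO and 0.319 ± 0.0118 under SGC707 (SD of 3 libraries), a log2 difference of -0.29 (two-sided exact permutation p = 0.1), from -0.32 to -0.26 with any library left out. MT-ND3 against the other 5 members on its strand moved by 0.57 on the log2 scale (two-sided exact permutation p = 0.1), from 0.48 to 0.62 with any library left out. The labels do not say how the counting handled reads of the shortest genes, and its part in these ratios was not tested.

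**Figure D5:**
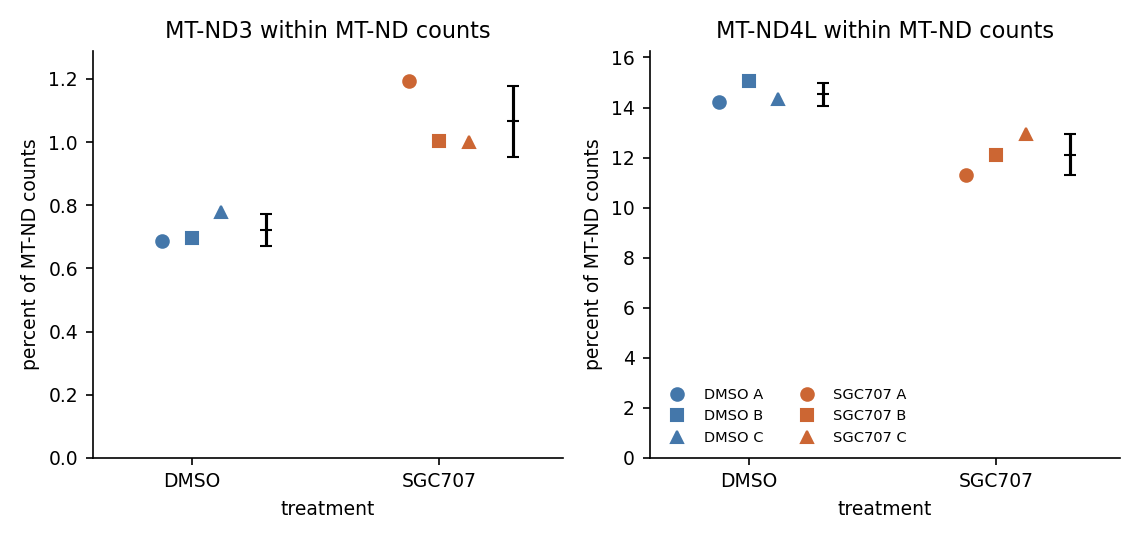
Percent of all MT-ND counts (vertical axis, from 0) on MT-ND3 (left) and MT-ND4L (right) by treatment; symbols are libraries and bars the mean ± SD of 3. MT-ND3 lies at 0.686% to 0.780% with DMSO and 0.999% to 1.19% with SGC707, and MT-ND4L at 14.2% to 15.1% and 11.3% to 12.9%.

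Summed, and set against the 6 mitochondrially encoded subunits of complexes III, IV and V, the complex I genes took a smaller share of mitochondrial counts with SGC707. MT-ND genes took 52.7%, 55.1% and 54.3% of mitochondrial counts across DMSO libraries A to C and 47.0%, 47.6% and 51.4% across SGC707 libraries A to C. The groups did not overlap, with means of 54.0% ± 1.24 and 48.7% ± 2.35 (SD of 3 libraries; exact two-sided permutation p = 0.1). Single genes were mixed on this scale. MT-ND4L and MT-ND5 were lower in all SGC707 libraries. So was MT-ND1, but narrowly, at 8.836% or less against 8.846% or more with DMSO. MT-ND3 and MT-ND6 were higher, and MT-ND2 and MT-ND4 overlapped through SGC707 C alone. MT-ND2 had 8.98%, 8.63% and 9.44% across SGC707 libraries A to C, against 9.37% or more with DMSO. MT-ND4 had 17.3%, 18.1% and 20.1%, against 19.2% or more. MT-CO2 was also higher (mean 3.85% to 4.81%), and the genes below overlapped. Means went from 16.7% to 19.2% for MT-CO1 and 5.21% to 7.12% for MT-CO3. They went from 5.52% to 5.24% for MT-CYB, 10.5% to 10.6% for MT-ATP6 and 4.14% to 4.29% for MT-ATP8. For MT-CO1, MT-CO3 and MT-ATP6 the overlap again came from SGC707 C alone, whereas MT-CYB and MT-ATP8 overlapped without it too. MT-CO1 had 21.1%, 20.4% and 16.2% across SGC707 libraries A to C, against 15.7% to 18.0% with DMSO. MT-CO3 had 8.32%, 7.78% and 5.27%, against 4.64% to 5.75%. MT-ATP6 had 9.06%, 9.73% and 13.1%, against 10.0% to 10.8%. The median log2 fold change was -1.63 over the 7 MT-ND genes and -1.39 over the other 6, beside 0.02 over all tested genes. Of those 6 genes, MT-CYB (cytochrome b of complex III, log2 fold change -1.68, edgeR adjusted p = 0.173) and MT-CO3 (a subunit of complex IV, -1.17, edgeR adjusted p = 0.202) had the smallest p. In edgeR 0 of the 6 passed, with 6 lower at an unadjusted p under 0.05 (7.13% of all genes). DESeq2 called 6 lower (2.12% of all genes), edgeR without SGC707 C called 6 lower (5.53%), and edgeR on library totals called 2 lower (0.254%). Limma-voom called 0.

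The nuclear-encoded subunits of complex I lay mostly at or above 0, unlike the 6 lower members. Of 37 nuclear subunits tested, 24 had a positive log2 fold change and 13 a negative one, beside 6440 positive among all 12196 tested genes. The median was 0.26 and the range -0.60 to 0.69, and the median was 0.15 without DMSO A and 0.13 without SGC707 A. In edgeR, 0 of 37 passed, with 6 higher and 1 lower at an unadjusted p under 0.05 (5.62% and 7.13% of all genes). That count of 6 stood beside 685 higher among all 12196 tested genes, and both counts moved when a library was dropped. It became 1 beside 480 with SGC707 A dropped, 4 beside 358 with SGC707 B dropped and 0 beside 262 with DMSO A dropped. It became 2 beside 231 with DMSO B dropped and 8 beside 779 with DMSO C dropped. With SGC707 C dropped it became 11, beside 1772 among 12191 genes. DESeq2 and limma-voom also called 0. Without SGC707 C edgeR called 2 of them higher and 0 lower, against 3.73% and 5.53% of all genes. Scaling by library totals alone made all 37 positive with a median of 0.90, against a median of 0.69 over all genes, and called 14 higher and 0 lower (21.1% and 0.254% of all genes).

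Among the 7 core nuclear subunits, which hold the electron-transfer path, NDUFS3, which sits in the matrix arm, averaged 10.5 ± 0.942 normalised CPM under DMSO and 16.5 ± 4.31 under SGC707 (SD of 3 libraries; log2 fold change 0.65, edgeR adjusted p = 0.326). Among the 30 accessory subunits, NDUFA8 (0.69, edgeR adjusted p = 0.272) and NDUFB1 (0.60, edgeR adjusted p = 0.313) had the smallest p. In these 3 genes the 3 SGC707 libraries lay above the 3 DMSO libraries, as in 10.8% of all tested genes on this scale.

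Assembly factors of complex I gave a mixed picture: 12 of 18 were positive and 6 negative, with a median of 0.19. NDUFAF2, which helps to complete the matrix arm, stood lower by log2 fold change, at -0.73 (edgeR adjusted p = 0.278), and FOXRED1 stood at 0.69 (edgeR adjusted p = 0.321). In edgeR 0 passed, with 2 higher and 1 lower at an unadjusted p under 0.05 (5.62% and 7.13% of all genes), and DESeq2 and limma-voom called 0. Without SGC707 C edgeR called 2 higher and 1 lower (3.73% and 5.53% of all genes), and on library totals 5 higher (21.1%).

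Of the genes that make and turn over mitochondrial RNA, edgeR with TMM scaling called 0. Of 8 transcription genes, which include the RNA polymerase POLRMT and the activator TFAM, 4 were positive and 4 negative, with a median of 0.07. The elongation factor TEFM (0.34, edgeR adjusted p = 0.565) and MTERF2 (0.38, edgeR adjusted p = 0.599) had the smallest p. Of 18 genes of RNA processing and stability, 12 were positive and 6 negative, with a median of 0.13. FASTKD1 (0.40, edgeR adjusted p = 0.414) and GRSF1, an RNA-binding protein of mitochondrial RNA granules (0.41, edgeR adjusted p = 0.440), had the smallest p. In both lists DESeq2 and limma-voom also called 0, and edgeR had 0 at an unadjusted p under 0.05. On library totals edgeR called 3 of the 8 transcription genes and 5 of the 18 processing genes higher, against 21.1% of all genes.

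By Pearson correlation of log2 normalised CPM over the 6 libraries, among 10179 nuclear genes with a mean of at least 5 CPM, the genes most like the summed 6 plus-strand members were SNAP25 (r = 0.998), ANKRD17 (r = 0.997) and RP9 (r = 0.995). SNAP25 stood at 268.9, 327.0 and 236.9 normalised CPM across DMSO libraries A to C and at 130.9, 136.8 and 207.4 across SGC707 libraries A to C. Those most like MT-ND6 were LGALSL (r = 0.994), YWHAG (r = 0.992) and ATP6AP2 (r = 0.990). These values are the highest of many and rest on 6 libraries in 2 groups, so they are given as a description.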

How the data were processed

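The deposited values are whole-number counts of reads for each gene symbol, which the authors left unscaled. Per the submitters' processing notes the tools were HISAT2 and StringTie and the build GRCh38; no version, annotation, strand setting or rule for shared reads is stated there. Per the labels' protocols, mRNA was isolated from DNase-treated total RNA and sequenced as paired reads. How mRNA was captured is not stated, and nuclear copies of mitochondrial genes can share reads with them.

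The test was edgeR 4.0.16 in R 4.3.3: filterByExpr (12196 genes kept), TMM scaling, robust glmQLFit and glmQLFTest without covariates. Benjamini-Hochberg adjustment ran over all tested genes, and an adjusted p under 0.05 counted as a call. The standard error is the log2 fold change over the root of its F statistic. Normalised CPM uses the TMM factors. Library values were compared by exact permutation over samples (scipy 1.17.1). Sequences, positions and lengths are those of GENCODE release 29. Libraries of a group never agreed within sampling noise (chi-square per degree of freedom at least 12.4), so all 6 entered.

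Members and gene lists were chosen with earlier results of these data known. The text names all 7 members, the genes of each other list that passed or else the 2 with the smallest p, and the 3 nuclear genes most like each of the 2 profiles. Some genes of these lists enter the list counts and sums but are not reported here by name. In simulated data for this comparison (12086 genes, 3 against 3 libraries) a 2-fold change was recovered by edgeR for 42.4% of changed genes and a 4-fold change for 96%, and 4 calls were false. Counts were drawn independently for each gene, with a spread from the trend fitted by edgeR. The 200 changed genes were all nuclear, and no library was set apart as SGC707 C was. These rates therefore need not hold for the members. Alternatives were other scalings (RLE, library totals, nuclear totals, nuclear TMM), no filter, a filter of 1 CPM in 3 libraries plus a mean of 50 counts, DESeq2 1.42.0, limma-voom in limma 3.58.1, a 0.01 threshold, the replicate letter as a block, and each library left out.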

Additional observations from a re-analysis of the deposited data

How the results depend on the processing

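The direction of all 7 members and of the 4 library comparisons held in every alternative run, with log2 fold changes from -2.46 to -0.47 for the 6 lower members and from 1.14 to 1.90 for MT-ND6. The 0.01 threshold for the members and the replicate block for the library comparisons could not change a direction, since they leave the difference as it was. Calls did not hold. Scaling to library totals gave 2574 higher and 31 lower genes, 1 member was higher and 5 lower (adjusted p = 0.0435; MT-ND3 did not pass at 0.104), and 14 nuclear complex I subunits were higher; that scaling moved the median of all genes to 0.69. DESeq2 gave 52 higher and 249 lower genes with 1 and 6 members. No filter gave 5 lower genes, limma-voom 0 higher (657 at an unadjusted p under 0.05), and a threshold of 0.01 gave 0 and 0. Leaving out 1 library gave 0 to 462 genes higher and 0 to 685 lower, 0 to 1 member higher and 0 to 6 lower, and 0 to 2 nuclear complex I subunits higher, each highest value without SGC707 C; edgeR called 0 genes in either direction when SGC707 B, DMSO B or DMSO A was dropped, 0 higher and 5 lower when DMSO C was, and 5 higher and 4 lower when SGC707 A was. The cause was not tested. With TMM effective library sizes as the denominator the MT-ND difference was -25.8 in place of -14.7. That denominator is a rescaled total, so -25.8 is not a difference in the share of counts.

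Whether same-letter libraries share more than a letter was not resolved. They correlated at 0.09 (A), 0.00416 (B) and 0.14 (C) in their deviations from group means. The value for C was the highest of any DMSO and SGC707 pair, but not every library correlated best with its own letter. With the replicate block edgeR called 0 genes higher and 0 lower (616 and 918 at an unadjusted p under 0.05), and MT-ND6 stood at 1.26 on the log2 scale (edgeR adjusted p = 0.170).

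MT-ND6 rests on 220 to 316 counts a library with DMSO, against 3003275 to 5165753 on the other 6. With SGC707 it rests on 776 to 1025, against 1355771 to 2345460.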
